A study of Homo sapiens with 6 samples.

Results

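The 48 genes described here encode proteins that drive or carry out the cell division cycle. They were listed by symbol from their textbook roles, with earlier results of these data known. The list was split into 21 genes of G1 and S phase and 27 genes of G2 and M phase. All 48 were found among the 38100 genes of the deposited tables and passed the filter on low counts, which kept 17720 genes. The cells were HK2, an established line derived from epithelial cells of the human proximal tubule and immortalised with papillomavirus oncogenes. All samples were labelled wild type and stimulated with TGF-β1. In 3 samples the cells carried a control adenovirus (AdCtrl+TGF, here AdCtrl) and in 3 an adenovirus for SIRT4 (AdSirt4+TGF, here AdSirt4), a mitochondrial sirtuin. No sample of the series was without TGF-β1 or without virus, so an effect of either was not measured. The time and dose of TGF-β1 for the sequenced cells are not given in the sources used here. In the study's checklist, n stands for technical replicates in work in vitro. Nothing says that the 3 samples of a group came from separate cultures, so p-values measure only the spread between these samples.

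Growth signals raise the D-type cyclins, whose kinases phosphorylate the retinoblastoma protein and release the E2F factors. E2F factors then switch on genes for DNA replication, such as cyclin E and the MCM helicase. Later in the cycle B-MYB (MYBL2) and FOXM1, with the MuvB complex, switch on the genes of mitosis through a promoter element called CHR, often beside CCAAT boxes bound by NF-Y. Tubular cells of the adult kidney divide rarely and re-enter the cycle after injury, and TGF-β is known to slow the division of epithelial cells.

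Motifs of both kinds were searched in the promoters of the genes. RefSeq promoters (GRCh38.p14, 250 bases before to 50 after the start) were matched for 37 of the 48 genes. An E2F site (TTTCCCGC, TTTGGCGC, TTTCGCGC or TTTGCCGC on either strand) stood in 12 of 16 promoters of G1 and S phase genes (75%) and in 2 of 21 of G2 and M phase genes (9.52%), against 3.31% of all 35116 promoters. A CHR element (TTTGAA or TTTAAA on either strand) stood in 3 of 16 (18.8%) and 16 of 21 (76.2%), against 24% of all promoters. CCAAT boxes on either strand were found in 62.5% and 76.2%, against 34.6%. A CCAAT box together with a CHR element was found in 13 of the 21 promoters of G2 and M phase genes (61.9%), in 2 of 16 of G1 and S phase genes (12.5%) and in 9.27% of all promoters. These matches describe letters in a window and not bound sites. The promoters of MCM6, CCNB2 and RRM2 are shown with the motifs in capitals, on the strand of the gene, the first for the most E2F sites of the 37, the second for CHR elements beside CCAAT boxes. MCM6 (minus strand, chr2:135876394-135876693), a subunit of the replicative helicase, held 4 E2F sites, which overlapped in pairs, and 2 CCAAT boxes. CCNB2 (plus strand, chr15:59104896-59105195), a cyclin of mitosis, held 2 CHR elements and 4 CCAAT boxes. RRM2 (plus strand, chr2:10122489-10122788), the regulated subunit of ribonucleotide reductase, counts as a G1 and S phase gene here but held 1 CHR element, 3 CCAAT boxes and no E2F site of the letters searched. It is shown because it had the lowest log2 fold change of all 48 genes. The RRM2 window was set around a start downstream of the RefSeq gene start at 10122568, which lies inside the window. Fewer than 250 bases before that gene start were therefore searched.
MCM6: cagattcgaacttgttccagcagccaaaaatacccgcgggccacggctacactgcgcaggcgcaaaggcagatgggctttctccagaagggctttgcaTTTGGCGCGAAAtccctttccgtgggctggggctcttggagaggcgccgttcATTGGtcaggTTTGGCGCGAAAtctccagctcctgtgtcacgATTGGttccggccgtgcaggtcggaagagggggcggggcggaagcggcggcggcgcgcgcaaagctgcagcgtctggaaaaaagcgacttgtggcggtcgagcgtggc
CCNB2: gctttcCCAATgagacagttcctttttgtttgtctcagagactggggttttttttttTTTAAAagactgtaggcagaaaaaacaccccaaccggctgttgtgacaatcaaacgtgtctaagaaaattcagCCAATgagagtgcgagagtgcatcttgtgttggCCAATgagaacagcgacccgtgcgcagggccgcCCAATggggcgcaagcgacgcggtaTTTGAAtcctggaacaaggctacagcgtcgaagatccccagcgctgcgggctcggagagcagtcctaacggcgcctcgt
RRM2: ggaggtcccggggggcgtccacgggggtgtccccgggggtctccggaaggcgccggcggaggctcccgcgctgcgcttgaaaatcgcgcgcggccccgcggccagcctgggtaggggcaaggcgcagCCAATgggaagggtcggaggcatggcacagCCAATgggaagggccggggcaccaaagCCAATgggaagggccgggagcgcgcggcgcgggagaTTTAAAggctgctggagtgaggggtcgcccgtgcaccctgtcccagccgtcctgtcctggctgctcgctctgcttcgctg

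The libraries held between 41537353 and 85684748 counts, and the lowest count of any of the 48 genes was 503. The SIRT4 count was 31, 47 and 57 in AdCtrl and 1996, 7995 and 6827 in AdSirt4 replicates 1, 2 and 3. Epithelial genes such as KRT8 (751 to 1095 CPM, counts scaled by library size) and PAX8 (208 to 261 CPM) were present. Of 14 markers of tubular cells 11 passed the filter, with GGT1, CUBN and SLC34A1 of the proximal tubule among them. ANPEP, LRP2 and AQP1, which also mark proximal tubules, did not pass it. Of 18 markers of fibroblasts, leukocytes and endothelial cells, COL3A1, CD3E and MS4A1 had no count in any library, and COL1A1, LUM and CD68 stood above 14 CPM in all. AdSirt4 replicate 1 stood apart from the other libraries in a way that followed gene length. Over the 48 genes, the deviation of its log2 CPM from the AdSirt4 mean had a Spearman correlation with gene length of -0.80. That of AdSirt4 replicates 2 and 3 had 0.66 and 0.79, values tied to replicate 1 because all 3 were centred on their shared mean. These correlations are across genes of single libraries and are given as a description. In the 16 shortest genes (0.880 to 2.80 kb) the median deviation of AdSirt4 replicate 1 from the AdCtrl mean was 0.36. In the 16 longest (4.05 to 14.3 kb) it was -0.19. In AdSirt4 replicates 2 and 3 the medians were -0.01 and -0.14 in the shortest genes and 0.01 and -0.02 in the longest. Log2 fold changes without this library are therefore given beside those of the members described one by one, and medians also with each library's trend on length removed. Without it the log2 fold change of 15 of the 48 genes changed sign (31.2%, against 28.6% of all genes), and with the length trend removed that of 6 (12.5%, against 11%).

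Most of the cell cycle genes were expressed at high levels in these cells, with a median percentile among the tested genes of 93.4 for G1 and S phase and 90.3 for G2 and M phase. On the FPKM scale, which divides by gene length, their mean over the 6 samples ran from 3.37 for E2F2 to 263 for PCNA, the sliding clamp of DNA replication, which spans percentiles 45.3 to 98.9. After PCNA came MCM7 at 183 FPKM, UBE2C, which carries ubiquitin for the anaphase-promoting complex, at 115 FPKM and TYMS, which makes thymidylate, at 113 FPKM. The median level was 50.8 FPKM over the G1 and S phase genes and 35.8 FPKM over the G2 and M phase genes. Among the cyclins CCND1 had 7.17, CCNE1 5.34 and CCNE2 8.37 FPKM, against 30.8 FPKM for CCND3, 34.7 for CCNA2, 48.9 for CCNB2 and 69.3 for CCNB1. The E2F activators differed as well, with 22.9 FPKM for E2F1 and 3.37 FPKM for E2F2. Together the 48 genes amounted to between 0.795% and 0.868% of the scaled library size in AdCtrl and between 0.797% and 0.840% in AdSirt4, so the summed levels of the groups overlapped. In bulk RNA, fewer dividing cells and less RNA of these genes per cell cannot be told apart.

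The comparison of AdSirt4 with AdCtrl asks whether more SIRT4 went with another level of these genes in TGF-β1-stimulated cells. In edgeR's quasi-likelihood test with Benjamini-Hochberg adjustment at 0.05, none of the 48 genes passed, as was the case for all but 2 of the 17720 genes tested (0.0113%). The smallest adjusted p among them was 0.494, for CCND1. At an unadjusted p of 0.05, CCND1 was higher and RRM2 lower in AdSirt4, which is 4.17% of the 48 genes against 7.93% of all genes (4.43% higher and 3.5% lower). DESeq2 called none of them at an adjusted p of 0.05 (1.16% of all genes) and the same 2 genes unadjusted (9.24% of all genes), and limma voom with sample quality weights called these 2 genes adjusted, in a fit in which 9.51% of all genes passed. In 9 of the 48 genes the groups did not overlap, 5 higher and 4 lower, against 19.4% of all genes (9.66% higher and 9.77% lower). As totals, 4.17% and 18.8% of the 48 genes were not above the shares over all genes. The median log2 fold change was 0.06 over the G1 and S phase genes and -0.03 over the G2 and M phase genes, against 0.02 over all tested genes. Values above 0 were found in 15 of 21 and 9 of 27 of them, against 53.4% of all genes. Without AdSirt4 replicate 1 the medians were 0.004 and -0.10, and with the length trend removed 0.06 and -0.04.

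**Figure D1:**
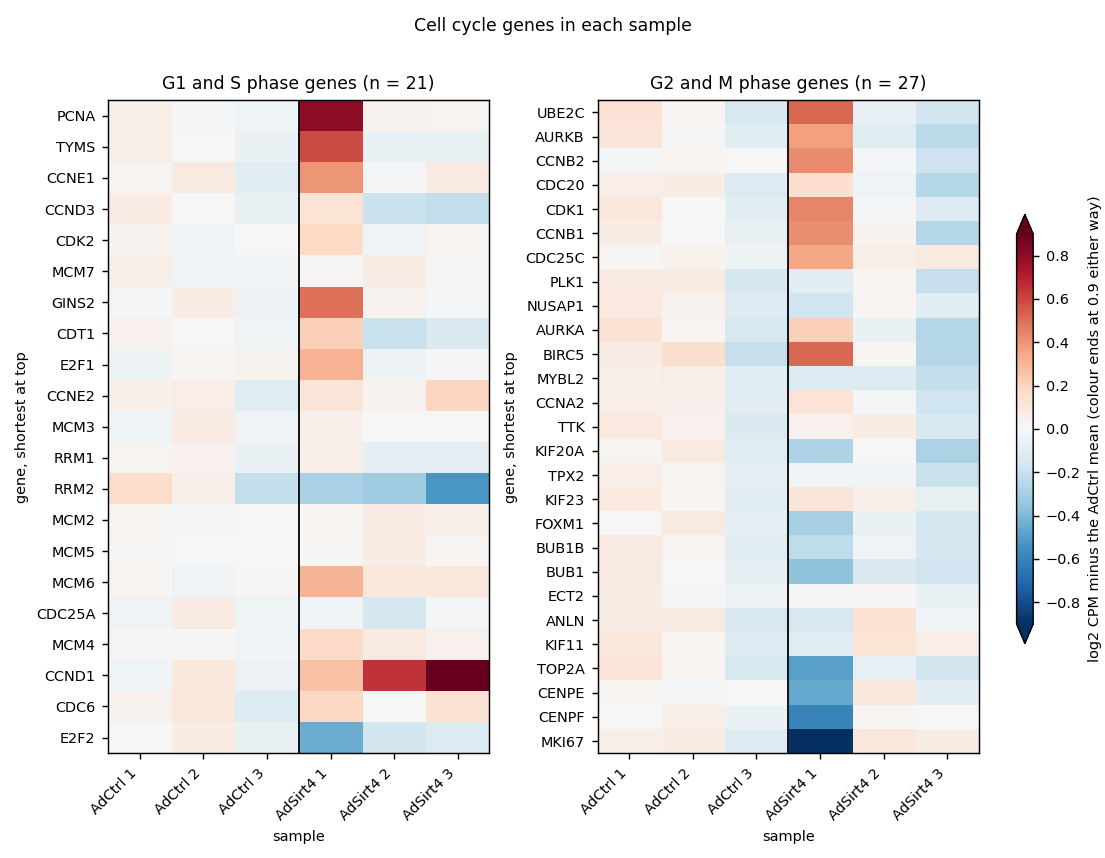
Difference of log2 CPM from the AdCtrl mean (colour) for each gene (rows, shortest at the top) in each of the 6 samples (columns), with the groups parted by the black line. AdSirt4 replicate 1 is red in most short genes and blue in most long ones, though CDC6, MCM4 and MCM6 are long and red there. CCND1 is red in all AdSirt4 samples and RRM2 blue in all of them. Most G2 and M phase genes are pale blue in replicate 3 of both groups. Colours stop at 0.9 on either side, which CCND1 in AdSirt4 replicate 3 and MKI67 in AdSirt4 replicate 1 exceed.

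CCND1 encodes cyclin D1, which links growth signals to entry into S phase (Entrez gene 595, GENCODE on GRCh38 chromosome 11, 69641087 to 69654474, plus strand). It measured 26.6, 29.1 and 26.3 CPM in AdCtrl and 32.8, 43.0 and 51.2 CPM in AdSirt4 replicates 1, 2 and 3. AdSirt4 was the higher group without overlap, and the spread in AdSirt4 was larger (42.4 ± 9.21 against 27.3 ± 1.54 CPM; SD, n = 3). The ratio of AdSirt4 to AdCtrl was 1.23, 1.48 and 1.95 in replicates 1, 2 and 3. The log2 fold change was 0.63 (standard error 0.17, 95% interval 0.24 to 1.03), and its adjusted p in edgeR was 0.494. For this gene and for each of the other 8 whose groups did not overlap, the two-sided exact permutation test gave p = 0.1, the smallest that 3 samples against 3 allow. Without AdSirt4 replicate 1 the log2 fold change reached 0.78 and the adjusted p 0.000719 in edgeR, a fit in which 6.71% of all genes passed. With the length trend removed the values were 0.66 and 0.118. Over the alternatives tried, the adjusted p ran from 0.000719 to 0.971. An exon of LTO1 on the other strand overlaps CCND1, and since the strand of the libraries is not given in the sources used here, reads of both genes could be mixed.

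The other D cyclin among the genes, CCND3, stood at 76.8, 72.9 and 69.6 CPM in AdCtrl and 79.4, 63.8 and 62.6 CPM in AdSirt4. AdSirt4 replicate 1 was the highest of all 6 samples and AdSirt4 replicates 2 and 3 were the lowest, so the groups overlapped. The log2 fold change was -0.09 (edgeR, adjusted p = 0.818). Without AdSirt4 replicate 1 it was -0.22 (edgeR, adjusted p = 0.0416), so the call depended on this library. Pseudogenes named after CCND3 are annotated and could share its reads.

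RRM2 makes deoxynucleotides for DNA synthesis as part of ribonucleotide reductase (Entrez gene 6241, chromosome 2, plus strand, 10120698 to 10131419 in GENCODE and 10122568 to 10211010 in RefSeq). It measured 339, 311 and 260.4 CPM in AdCtrl and 247, 242 and 210.0 CPM in AdSirt4. All AdSirt4 samples lay below all AdCtrl samples, though AdCtrl replicate 3 was nearer to AdSirt4 than to the other AdCtrl samples. Within replicate numbers the ratio of AdSirt4 to AdCtrl was 0.730, 0.777 and 0.807. The log2 fold change was -0.38 (standard error 0.13, 95% interval -0.70 to -0.07), and its adjusted p in edgeR was 0.593. It was -0.43 without AdSirt4 replicate 1 (adjusted p = 0.0735) and -0.38 with the length trend removed (adjusted p = 0.227). With sample quality weights in limma voom the adjusted p was 0.029, and over all alternatives it ran from 0.029 to 0.971. The constitutive partner RRM1 measured 187, 190 and 177 CPM in AdCtrl and 191, 175 and 174 CPM in AdSirt4, with overlapping groups and a log2 fold change of -0.04 (-0.09 without AdSirt4 replicate 1). RRM2 has 3 named pseudogenes, and GENCODE places exons of another protein-coding gene, AC007240.1, over it on the same strand, so part of its counts is uncertain.

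**Figure D2:**
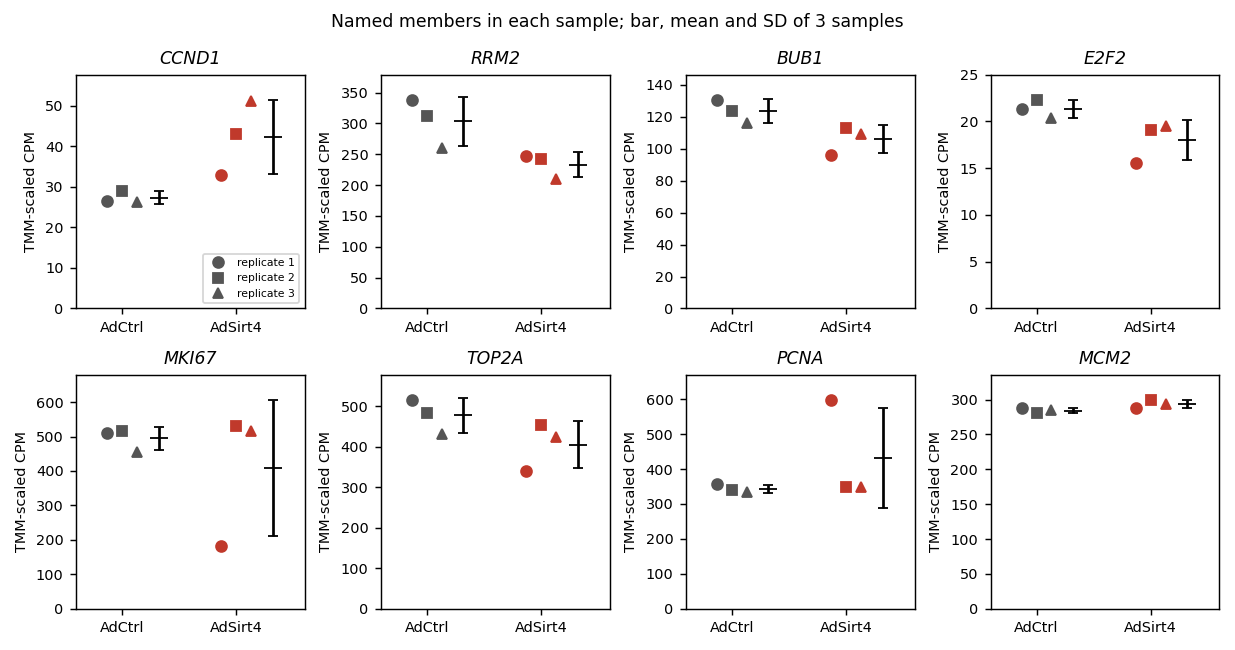
TMM-scaled CPM (vertical axis, from 0) of 8 genes in the AdCtrl samples (grey) and the AdSirt4 samples (red), with the replicate number by symbol and the mean and SD of 3 samples as a bar. CCND1, RRM2, BUB1, E2F2 and MCM2 show groups that do not overlap, and in MKI67, TOP2A and PCNA the circle of AdSirt4 replicate 1 lies far from the squares and triangles.

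The genes that license and fire origins of replication lay close to their AdCtrl levels. The subunits of the MCM helicase had log2 fold changes from 0.01 (MCM3) to 0.17 (MCM6), with 95% intervals that included 0 in each of the 6 genes. MCM3 and MCM2 were at -0.01 and 0.06 without AdSirt4 replicate 1. MCM2 measured 288, 280.1 and 285 CPM in AdCtrl and 288, 299 and 294 CPM in AdSirt4. These samples did not overlap but differed by 1.03 times in the mean, and AdSirt4 replicate 1 equalled AdCtrl replicate 1 to 3 digits. MCM6 measured 219, 212 and 218 CPM in AdCtrl and 268, 231 and 232 CPM in AdSirt4. The groups did not overlap, with AdSirt4 replicate 1 far above the rest, and the log2 fold change was 0.17 (adjusted p = 0.718 in edgeR) with all samples and 0.09 without that replicate. MCM4 did not overlap either, with a log2 fold change of 0.10 (0.06 without AdSirt4 replicate 1). CDC6, which loads the helicase, measured 55.9, 58.7 and 50.2 CPM in AdCtrl and 62.4, 54.9 and 60.1 CPM in AdSirt4, and the groups overlapped, with a log2 fold change of 0.11 (0.06 without AdSirt4 replicate 1). Its partner CDT1 had a log2 fold change of -0.03 with all samples and -0.17 without AdSirt4 replicate 1 (adjusted p = 0.942 and 0.0871 in edgeR). GINS2, a subunit of the working helicase, stood at 37.9, 40.2 and 37.0 CPM in AdCtrl and at 54.0, 39.1 and 38.0 CPM in AdSirt4, where replicate 1 alone was high, and its log2 fold change was 0.19 with all samples and 0.004 without that library.

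PCNA, at 1.45 kb among the shortest of the genes, measured 356, 339 and 334 CPM in AdCtrl and 598, 350 and 349 CPM in AdSirt4. Only AdSirt4 replicate 1 lay outside the range of the AdCtrl samples. The log2 fold change was 0.33 with a 95% interval of -0.19 to 0.86 over all samples, and 0.02 with an interval of -0.09 to 0.14 without that library. With the length trend removed it was 0.19 with an interval of -0.02 to 0.40. AdSirt4 replicate 1 then still stood 0.37 above the AdCtrl mean in log2 CPM. The groups of PCNA did not overlap on that scale, as in 24.3% of all genes. PCNA has 3 named pseudogenes. TYMS (1.83 kb) stood at 294 CPM in AdSirt4 replicate 1 and between 186 and 203 CPM in the other samples, and its log2 fold change was 0.18 over all samples and -0.07 without that library.

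Cyclin E and its regulators did not pass the test. CCNE1 measured 11.4, 11.8 and 10.4 CPM in AdCtrl and 14.8, 11.1 and 11.8 CPM in AdSirt4. CCNE2 measured 25.3, 25.5 and 22.7 CPM in AdCtrl and 26.5, 25.1 and 28.0 CPM in AdSirt4. The groups overlapped in both cyclins, and their log2 fold changes were 0.16 and 0.11 (adjusted p = 0.768 and 0.769 in edgeR). Without AdSirt4 replicate 1 they were 0.02 and 0.11. CDK2, the kinase of cyclin E, had a log2 fold change of 0.06 with all samples and -0.01 without that library, and CDC25A, the phosphatase that activates it, had -0.07 and -0.09. E2F2, an activator of these genes, measured 21.3, 22.3 and 20.4 CPM in AdCtrl and 15.6, 19.0 and 19.5 CPM in AdSirt4. All its AdSirt4 samples lay below all AdCtrl samples, with replicate 1 the lowest, and the log2 fold change was -0.24 (adjusted p = 0.678 in edgeR) and -0.15 without that replicate. The groups of E2F1 overlapped, with a log2 fold change of 0.09 that turned to -0.04 without AdSirt4 replicate 1.

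Of the genes of G2 and M phase, none passed in edgeR with all samples, adjusted or unadjusted. MKI67, the proliferation antigen Ki-67 (chromosome 10, 128096659 to 128126385, minus strand), was the longest gene of the list at 14.3 kb. It measured 511, 516 and 456 CPM in AdCtrl and 182, 530 and 516 CPM in AdSirt4. AdSirt4 replicate 1 was far below every other library, whereas AdSirt4 replicates 2 and 3 lay within or above the range of the AdCtrl samples. The log2 fold change was -0.27 with a 95% interval of -1.15 to 0.61, and 0.08 with an interval of -0.06 to 0.21 without AdSirt4 replicate 1. The direction of MKI67 therefore rested on that library. TOP2A, the topoisomerase that untangles replicated chromosomes (6.43 kb), measured 516, 484 and 432 CPM in AdCtrl and 339.7, 453 and 424 CPM in AdSirt4. Its groups overlapped and its log2 fold change was -0.23 with all samples and -0.13 without AdSirt4 replicate 1.

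The kinase of mitosis CDK1 measured 175, 165 and 153 CPM in AdCtrl and 223, 163 and 152 CPM in AdSirt4. Its cyclin CCNB1 measured 164, 156 and 149 CPM in AdCtrl and 209, 160.0 and 131 CPM in AdSirt4. In both genes AdSirt4 replicate 1 was the highest of the 6 samples and AdSirt4 replicate 3 the lowest, so the AdSirt4 samples enclosed the AdCtrl range. The log2 fold changes were 0.12 and 0.09 with all samples and -0.07 and -0.11 without AdSirt4 replicate 1. CDC25C, the phosphatase that activates CDK1, measured 15.6, 15.8 and 14.9 CPM in AdCtrl and 19.7, 16.0 and 16.4 CPM in AdSirt4. Its groups did not overlap, by a narrow gap between AdCtrl replicate 2 and AdSirt4 replicate 2, and its log2 fold change was 0.17 (adjusted p = 0.732 in edgeR) and 0.07 without AdSirt4 replicate 1, its highest sample.

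BUB1 and MYBL2 were 2 of the 4 genes with all AdSirt4 samples below all AdCtrl samples. TTK, another kinase of the G2 and M phase list, had overlapping groups and a log2 fold change of -0.01 (-0.04 without AdSirt4 replicate 1). BUB1, a kinase of the spindle checkpoint, measured 131, 124 and 116 CPM in AdCtrl and 96.0, 113 and 109.5 CPM in AdSirt4. The AdSirt4 samples were all below the AdCtrl samples, replicate 1 by the most. The log2 fold change was -0.22 (edgeR, adjusted p = 0.673) and -0.16 without AdSirt4 replicate 1. MYBL2 measured 311, 312 and 282 CPM in AdCtrl and 277, 277 and 259.9 CPM in AdSirt4. Its ratios within replicate numbers were close to each other at 0.890, 0.887 and 0.921, and its log2 fold change was -0.15 (adjusted p = 0.731 in edgeR) and -0.17 without AdSirt4 replicate 1 (adjusted p = 0.114).

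BUB1B, the checkpoint partner of BUB1, measured 84.5, 81.6 and 75.0 CPM in AdCtrl and 68.6, 78.2 and 72.3 CPM in AdSirt4. FOXM1 measured 155, 163 and 146 CPM in AdCtrl and 126, 148 and 139 CPM in AdSirt4. KIF20A, a kinesin of the central spindle, measured 131, 136 and 119 CPM in AdCtrl and 106, 128 and 105.4 CPM in AdSirt4. In these 3 genes the groups overlapped through AdCtrl replicate 3 and AdSirt4 replicate 2, and the log2 fold changes were -0.14, -0.17 and -0.19 (adjusted p = 0.740, 0.719 and 0.721 in edgeR). They were -0.10, -0.11 and -0.14 without AdSirt4 replicate 1. The other G2 and M phase genes, from the Aurora kinases and PLK1 to the kinesins KIF11 and KIF23 and the cytokinesis genes ANLN and ECT2, had overlapping groups. KIF23, which bundles microtubules in cytokinesis, had a ratio of AdSirt4 to AdCtrl of 1.02 in each replicate number. UBE2C, BIRC5, CCNB2 and AURKB had log2 fold changes of 0.12, 0.12, 0.10 and 0.03 with all samples and of -0.13, -0.13, -0.10 and -0.18 without AdSirt4 replicate 1.

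The size of change that these samples allow was narrow for most of the genes. The 95% interval of the log2 fold change from edgeR lay within 0.5 of 0 on either side (1.41-fold) in 15 of 21 G1 and S phase genes and in 21 of 27 G2 and M phase genes, against 37.6% of all tested genes. It lay within 1 in 20 of 21 and 26 of 27, with CCND1 and MKI67 as the exceptions. The median half-width of the intervals was 0.24 and 0.27 in these lists and 0.42 over all genes. Without AdSirt4 replicate 1 the intervals lay within 0.5 in 19 of 21 and 27 of 27, CCND1 and RRM2 being the exceptions. In that fit the median half-width over all genes was 0.20. Shares over all genes were not counted for the bound of 1 or for that fit. The lists stood at median expression percentiles of 93.4 and 90.3, and the part of expression level in these widths was not tested.

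**Figure D3:**
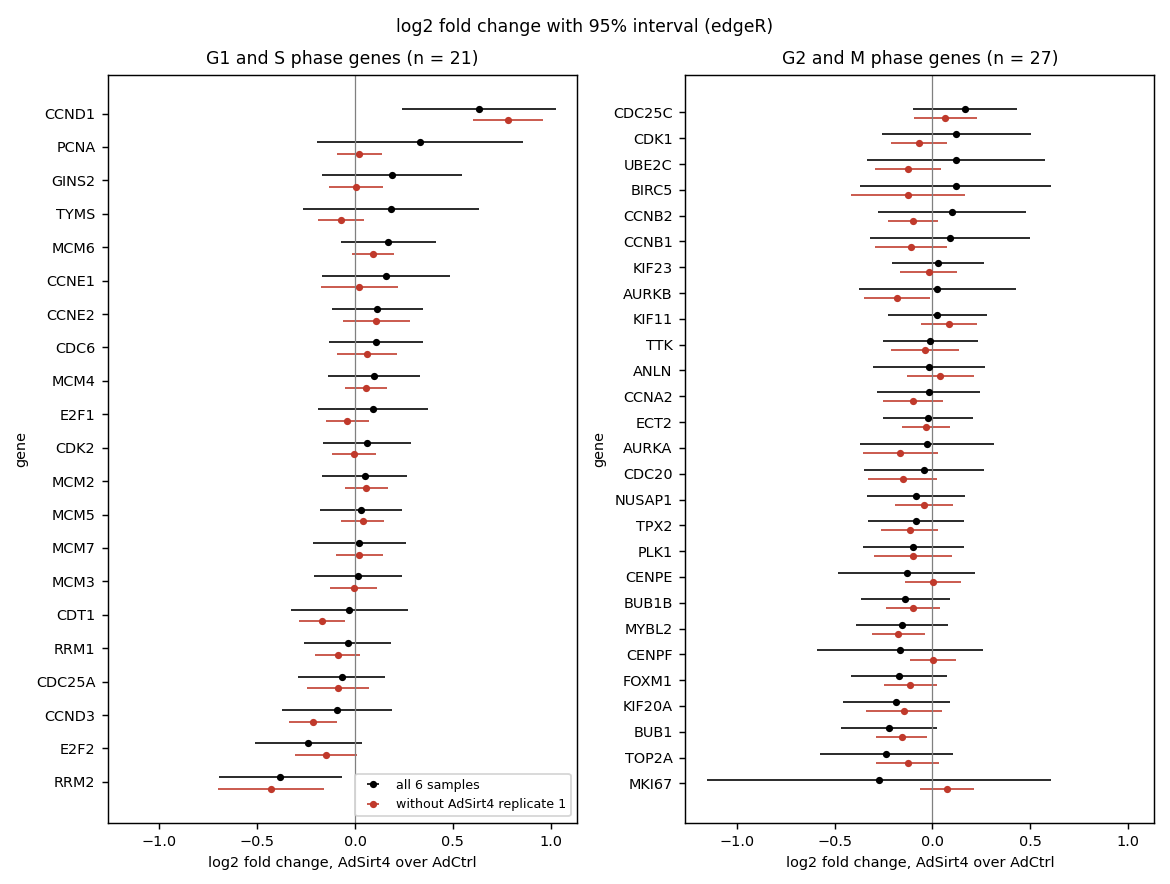
Log2 fold change of AdSirt4 over AdCtrl with its 95% interval from edgeR (horizontal axis) for the G1 and S phase genes and the G2 and M phase genes, with all 6 samples (black) and without AdSirt4 replicate 1 (red). With all samples only the intervals of CCND1 and RRM2 exclude 0, and the widest is that of MKI67, from -1.15 to 0.61, which shrinks to -0.06 to 0.21 without that library.

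The G2 and M phase genes were low in replicate 3 of both groups. AdCtrl replicate 3 was the lowest of the AdCtrl samples in 25 of 27 of these genes (92.6%), against 34% of all tested genes, and AdSirt4 replicate 3 was below AdSirt4 replicate 2 in 26 of 27 (96.3%), against 50.4%. Both held in 24 of 27 (88.9%), against 22% of all genes. AdSirt4 replicate 1 was the lowest AdSirt4 sample in 10 of the 27 genes (37%), against 45.6% of all genes. In the G1 and S phase genes AdCtrl replicate 3 was the lowest AdCtrl sample in 14 of 21 (66.7%). There AdSirt4 replicate 3 was below AdSirt4 replicate 2 in 10 of 21 (47.6%), and both held in 6 of 21 (28.6%). The median deviation of the G2 and M phase genes from the AdCtrl mean was 0.07, 0.03 and -0.10 log2 units in AdCtrl and -0.03, 0.00 and -0.17 in AdSirt4 replicates 1, 2 and 3. Replicate 3 was thus the lowest in both groups, by more than the groups differed within a replicate number, where the median differences were -0.09, -0.05 and -0.05. The G2 and M phase medians of replicates 1 and 2 stood in opposite order in AdCtrl and AdSirt4. For the G1 and S phase genes the median differences within replicate numbers were 0.15, -0.06 and 0.03. After removal of each library's length trend, AdCtrl replicate 3 was the lowest in 26 of 27 G2 and M phase genes, against 34.4% of all genes. AdSirt4 replicate 3 was then the lowest of the 3 AdSirt4 samples in 16 of 27, against 32.7%. By this rule, stricter for AdSirt4 than the one above, both held in 15 of 27 (55.6%), against 14.8% of all genes. These are counts of genes in single libraries, 1 for each replicate number and group, and are given as a description. The labels do not say what a replicate number shares, and its part in this pattern was not tested.

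**Figure D4:**
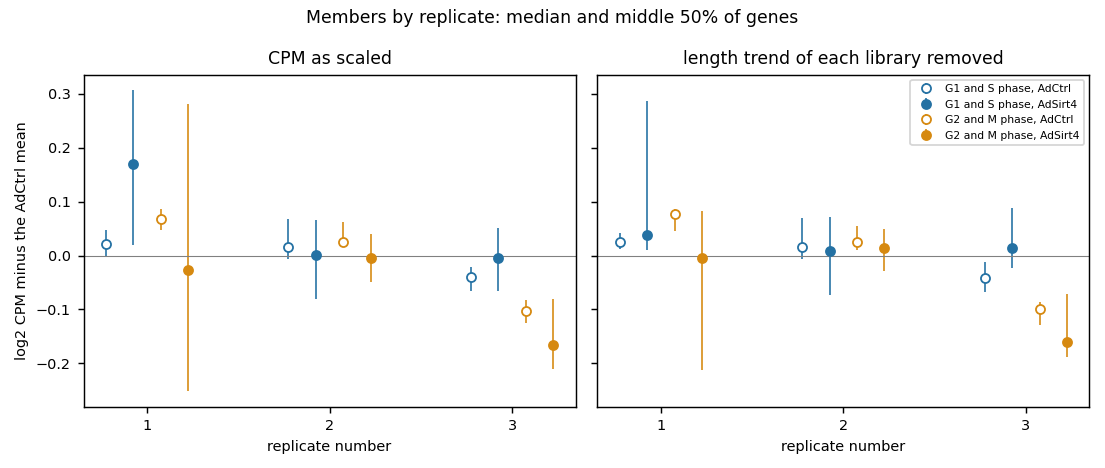
Median (points) and middle 50% of genes (bars) of the difference of log2 CPM from the AdCtrl mean, by replicate number, for G1 and S phase genes (blue) and G2 and M phase genes (orange) in AdCtrl (open) and AdSirt4 (filled). The G2 and M phase medians of replicate 3 are -0.10 in AdCtrl and -0.17 in AdSirt4 as scaled (left) and -0.10 and -0.16 with the length trend removed (right), the lowest of their groups in both.

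Other genes of the cycle were counted in the same fit, and none passed after adjustment. Of 56 other G1 and S phase genes, MYC alone passed an unadjusted p of 0.05, with 124, 119 and 139 CPM in AdCtrl and 151, 150.2 and 153 CPM in AdSirt4, and the median log2 fold change was 0.04. The groups of MYC, a driver of cell growth, did not overlap, and its log2 fold change was 0.25 (edgeR, adjusted p = 0.612, and 0.0492 without AdSirt4 replicate 1). USP1 and CHAF1A came next, with log2 fold changes of 0.27 and 0.17. Of 61 other G2 and M phase genes, CENPU of the kinetochore alone passed, with a log2 fold change of 0.50 (0.30 without AdSirt4 replicate 1), and the median was -0.06. CDC25B and CKAP5 followed with -0.22 and -0.37. The replicate pattern was also seen in this list, where AdCtrl replicate 3 was the lowest of its group and AdSirt4 replicate 3 below AdSirt4 replicate 2 in 52 of 61 genes (85.2%). AdSirt4 replicate 1 was the lowest of its group in 18 of the 61 (29.5%).

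Of 36 inhibitors and brakes of the cycle, BTG2 was lower and CDKN2B higher at an unadjusted p of 0.05, and the median log2 fold change was 0.02. BTG2, an antiproliferative gene, measured 10.4, 11.7 and 9.56 CPM in AdCtrl and 8.47, 7.81 and 8.01 CPM in AdSirt4. CDKN2B, an inhibitor of the cyclin D kinases that TGF-β is known to induce, measured 13.5, 13.7 and 14.4 CPM in AdCtrl and 17.5, 17.2 and 16.1 CPM in AdSirt4. In both genes the groups did not overlap, and the log2 fold changes were -0.39 and 0.29 (adjusted p = 0.536 and 0.553 in edgeR). WEE1, which holds CDK1 inactive, had 0.23. Without AdSirt4 replicate 1, 1 of the 56, 6 of the 61 and 5 of the 36 genes passed an adjusted p of 0.05, among them CDKN1B (-0.39) and CDC25B (-0.28), against 6.71% of all genes.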

How the data were processed

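Poly-A selected RNA of 6 samples was sequenced, 3 per group. The authors deposited whole-number counts per gene, not normalized, and a further table, read here as FPKM because deposited values and counts gave a gene length that was the same within 5% in all samples for 10737 of 17720 tested genes. The submitters' processing notes name fastp 0.21.0, HISAT2 2.1.0, StringTie 2.1.5 and DESeq2 1.30.1 and the build hg38, without their roles. Every deposited column belonged to a sample. All titles name HK2, though the label for the cell line is numbered differently from sample to sample. No 2 replicates were copies (chi-square per gene 9.97 to 237).

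Counts were compared with edgeR 4.0.16 in R 4.3.3 on all genes (filterByExpr, minimum count 10; TMM; robust quasi-likelihood test; group only; Benjamini-Hochberg adjustment over 17720 genes, threshold 0.05). CPM are scaled by TMM, gene lengths were computed from both tables, and 95% intervals come from the fit. A count of 0 allows 3 counts, 0.0348 to 0.0770 CPM on the scaled library sizes, and counting error alone is covered. The members, lists, tests and alternatives were chosen with earlier results of these data known. Genes named with values in every sample were MKI67, TOP2A, CCNB1, CDK1, CCND1, MCM2, PCNA and CCNE1 as common markers and the 12 further members with the smallest unadjusted p, with up to 3 genes by p from each other list. CCND3 and RRM1 were added after their values were seen.

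The deviations of samples from their group means correlated across genes at 0.178, 0.159 and 0.176 between samples with the same replicate number and at -0.188 to 0.030 between others. The numbers were therefore taken to pair the samples in an alternative fit, from the data and not from the labels. Because each group was centred on its own mean, these correlations are tied to each other and do not establish a pairing. The alternatives were DESeq2 1.42.0, RLE size factors, all genes with at least 1 count, the replicate block, removal of each library's length trend (lowess, span 0.3) with and without the block, limma 3.58.1 on log2(FPKM + 1) and log2(FPKM + 0.1), limma voom with sample quality weights, and each sample left out in turn. The fits were also run on simulated counts with known fold changes, as a check of the code and not of these libraries. Pseudogenes and overlapping exons were taken from GENCODE (GRCh38): 10 members have a named pseudogene, 19 share exons with another gene, 16 of them on the other strand, and 22 have neither. Tables and figures were made with Python 3.11.15, pandas 2.3.3, numpy 2.4.6 and matplotlib 3.10.9.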

Additional observations from a re-analysis of the deposited data

How the results depend on the processing

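The count of members at an unadjusted p of 0.05 was 2 and became 6 with the length trend removed (14% of all genes) and 7 with sample quality weights in limma voom (27.3% of all genes), and the count at an adjusted p of 0.05 was 0 and became 2 with those weights (CCND1 and RRM2). With 1 sample left out, the counts ran from 0 to 2 adjusted, from 1 to 7 unadjusted and from 9 to 17 for groups that did not overlap. The 2 adjusted calls (CCND1 and CCND3) and the 7 unadjusted ones came without AdSirt4 replicate 1, where 24.3% of all genes passed unadjusted. The counts of groups without overlap were 16 without AdCtrl replicate 3, 14 without AdSirt4 replicate 1 and 17 without AdSirt4 replicate 2 (33.3%, 29.2% and 35.4% of the members, against 25.4%, 41.4% and 25.2% of all genes in the same fits). The median log2 fold change ran from 0.004 to 0.11 for G1 and S phase members and from -0.10 to 0.01 for G2 and M phase members over these fits. The replicate block gave 0 adjusted and 2 unadjusted calls, CCND1 and RRM2, medians of 0.06 and -0.03, and changed no call, and the length trend removed together with the block gave the same counts.

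Of 300 values of the 20 named members under the alternatives, 291 kept their direction and their side of the threshold, 3 passed it (CCND1 at 0.71 and RRM2 at -0.38 with sample quality weights, and CCND1 at 0.78 without AdSirt4 replicate 1) and 6 turned their direction. With sample quality weights MKI67 was at 0.052, CCNB1 at -0.035 and CDK1 at -0.036. With 1 sample left out, MKI67 ran from -0.50 to 0.076, CCNB1 from -0.11 to 0.24 and CDK1 from -0.069 to 0.23, each of them turning without AdSirt4 replicate 1. The cause was not tested. Fits without 1 sample leave 2 samples in a group. The lowest count of a member was 503. Without AdSirt4 replicate 1 the median half-width of the intervals was 0.12 in the G1 and S phase members and 0.15 in the G2 and M phase members. Over all genes it was 0.20.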
